A study of Mus musculus with 6 samples.

Results

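Creatine kinase and energy transfer genes were examined in adult mouse cardiomyocytes (CMs) that lack *Cpt1b*, the muscle isoform of carnitine palmitoyltransferase, which is needed for fatty acids to enter mitochondria. The set was chosen by gene symbol and holds 8 of the 16448 genes listed in the deposited RNA-seq table: *Ckm*, *Ckmt2*, *Ckb*, *Slc6a8*, *Ak1*, *Ak3*, *Ak4* and *Ampd3*. All 8 passed the filter on low values, a normalized count of at least 10 in at least 3 samples, which left 11364 genes. The study made 3 CtrlCre and 3 Cpt1bcKO samples from C57BL/6 mice aged 8 to 12 weeks. CtrlCre mice carried the αMHC-Cre transgene with wild-type *Cpt1b*, and Cpt1bcKO mice carried the same transgene with floxed alleles on both copies of *Cpt1b*. The αMHC (*Myh6*) promoter drives Cre in CMs and is active before birth, so the gene was lost long before the hearts were taken, and Cre itself was present in both groups. CMs were obtained from ventricles by enzymatic perfusion and low-speed centrifugation, and total RNA was sequenced. Values are read counts divided by a factor for each sample, called normalized counts here. The study gives mice as the sample unit of this comparison.

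Creatine kinases pass a phosphate group between ATP and creatine. In heart muscle, the mitochondrial enzyme makes phosphocreatine where ATP is exported, and the cytosolic enzymes use it to regenerate ATP beside myosin and the ion pumps. Adenylate kinases combine and split adenine nucleotides and are a parallel route for the same transfer, and AMP deaminase removes the AMP that is left. Heart muscle makes little creatine of its own and takes it up from blood by the creatine transporter.

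*Ak4* showed the lowest levels in Cpt1bcKO relative to CtrlCre CMs, 0.578 times the control level, and was the 1 member of 8 whose samples did not overlap between the genotypes. None of the 8 members reached an adjusted *P* value below 0.05 with limma and Benjamini–Hochberg adjustment over all genes, where 1.57% of the genes tested did. At an unadjusted *P* value below 0.05, 1 of 8 members was lower (*Ak4*, 12.5% of the set, against 7.22% of all genes tested) and 0 of 8 were higher (6.66% of all genes). Groups did not overlap in 18.7% of all genes tested. The set had 3 members with a higher and 5 with a lower mean on the log2 scale and a median log2 fold change of −0.11, and the median over all genes tested was −0.0013.

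The targeted gene *Cpt1b* (ENSMUSG00000078937) had 1861, 893 and 1443 normalized counts in CtrlCre samples 1, 2 and 3 and 211, 353 and 285 in Cpt1bcKO samples 1, 2 and 3. Its log2 fold change was −2.27 (SE 0.267, limma adjusted *P* = 0.00338), and all Cpt1bcKO samples were below all CtrlCre samples. Sums of normalized counts ran from 13393411 to 31722217 per sample, of which mitochondrial-encoded and rRNA genes took 74.8% to 89.5%, and from 3146414 to 3551692 without these genes. Scaling the samples to equal sums without these genes moved the median of all genes up to 0.11 on the log2 scale. *Xist* and Y-linked genes differed between sample 1 and samples 2 and 3 in both groups as they do between females and males, although the labels give no sex. A comparison within sex therefore sets sample 1 against sample 1, and sex and sample number cannot be told apart.

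Sequence is shown for 4 members that the comparison turns on, as the 250 bases before the RefSeq start site that lies nearest the gene start in the deposited table (RefSeq, GRCm38.p6). The 3 creatine kinases are shown because their levels per length span a wide range, and *Ak4* because its groups did not overlap. *Ckm* is at chr7:19410844-19411093 on the plus strand, *Ckmt2* at chr13:91876886-91877135 on the minus strand, *Ckb* at chr12:111672339-111672588 on the minus strand and *Ak4* at chr4:101419039-101419288 on the plus strand. Capitals mark matches on either strand to 4 motifs. The TATA box was searched as TATANA. The E-box, bound by helix-loop-helix factors, was searched as CANNTG. The core of a hypoxia response element was searched as ACGTG. The GC box, bound by Sp factors, was searched as GGGCGG. An E-box with the letters CACGTG also counts as a hypoxia core, once on each strand.
Ckm: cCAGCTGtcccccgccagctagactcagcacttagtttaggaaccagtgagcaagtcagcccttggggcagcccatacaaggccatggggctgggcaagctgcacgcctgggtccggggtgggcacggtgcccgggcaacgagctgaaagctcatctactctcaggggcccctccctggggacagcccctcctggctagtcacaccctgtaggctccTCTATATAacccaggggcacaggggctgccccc
Ckmt2: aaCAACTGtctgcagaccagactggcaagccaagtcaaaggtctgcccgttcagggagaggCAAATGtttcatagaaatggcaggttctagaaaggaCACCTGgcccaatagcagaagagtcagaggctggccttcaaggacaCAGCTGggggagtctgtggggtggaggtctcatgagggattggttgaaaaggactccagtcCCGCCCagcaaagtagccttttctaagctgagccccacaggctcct
Ckb: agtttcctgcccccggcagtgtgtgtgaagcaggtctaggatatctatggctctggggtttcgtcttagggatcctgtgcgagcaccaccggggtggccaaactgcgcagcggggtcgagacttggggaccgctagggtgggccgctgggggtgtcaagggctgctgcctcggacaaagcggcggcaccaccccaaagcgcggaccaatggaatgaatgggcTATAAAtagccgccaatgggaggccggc
Ak4: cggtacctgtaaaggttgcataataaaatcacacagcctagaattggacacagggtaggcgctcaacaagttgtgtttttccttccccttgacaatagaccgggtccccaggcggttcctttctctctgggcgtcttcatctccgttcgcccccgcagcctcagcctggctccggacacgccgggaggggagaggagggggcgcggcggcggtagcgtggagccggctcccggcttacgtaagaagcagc
TATANA was found in 22.6%, CANNTG in 66.2%, ACGTG in 16.6% and GGGCGG in 32.7% of the 32851 RefSeq windows of this length. The *Ckm* window held TATANA on both strands, at −33 and −31 from the start site, and 1 E-box at its far end. The *Ckb* window held TATANA at −28 and none of the other motifs. The *Ckmt2* window had no TATANA but held 4 E-boxes and a GC box at −46. The *Ak4* window held none of the 4 motifs. RefSeq gives 3 further *Ak4* start sites, and the window of the most distant one, chr4:101419453-101419702, held 1 E-box that is also ACGTG on both strands and 2 GC boxes at −26 and −13. A match of these letters is a description and not a binding site. In all, 7 of the 8 members had an entry, with 15 windows, and *Slc6a8* had none.

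*Ckmt2* (ENSMUSG00000021622, chromosome 13 from 91853387 to 91876885, minus strand, GRCm38) encodes the sarcomeric mitochondrial creatine kinase, which sits between the mitochondrial membranes. It had 9426, 9218 and 8497 normalized counts in the CtrlCre samples and 9071, 7704 and 8850 in the Cpt1bcKO samples. Samples of both genotypes were interleaved, with the lowest value in Cpt1bcKO sample 2, and sample 1 was the highest of its group in both genotypes. The means were 9047 ± 488 and 8542 ± 734 (SD, n = 3 each). Expressed as a log2 fold change the difference was −0.085 (SE 0.145, 95% interval −0.41 to 0.24, limma adjusted *P* = 0.839), and it became 0.027 when the samples were scaled without mitochondrial-encoded and rRNA genes. With 1 sample left out it ran from −0.13 without CtrlCre sample 3 to −0.013 without Cpt1bcKO sample 2.

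*Ckm* (ENSMUSG00000030399, chromosome 7 from 19411025 to 19422841, plus strand) encodes the muscle creatine kinase of the cytosol and the sarcomeric M-line. It had 2671, 1625 and 1582 normalized counts in the CtrlCre samples and 2454, 1354 and 1298 in the Cpt1bcKO samples. Here too sample 1 was the highest of both groups, at 1.67 and 1.85 times the mean of samples 2 and 3, and the groups overlapped. The means were 1959 ± 617 and 1702 ± 652 (SD, n = 3 each). For *Ckm* the log2 fold change was −0.22 (SE 0.269, 95% interval −0.82 to 0.37, limma adjusted *P* = 0.765), with −0.12 between the sample 1 pair and −0.27 between samples 2 and 3 of the groups. It was 0.022 without CtrlCre sample 1 and −0.52 without Cpt1bcKO sample 1. For the latter, limma gave an unadjusted *P* = 0.0332 and an adjusted *P* = 0.206.

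*Ckb* (ENSMUSG00000001270, chromosome 12 from 111669361 to 111672338, minus strand) encodes the brain-type cytosolic creatine kinase, which is also made in fetal heart and in smooth muscle. It had 106, 150 and 175 normalized counts in the CtrlCre samples and 145, 155 and 210 in the Cpt1bcKO samples. Sample 1 was the lowest and sample 3 the highest of its group in both genotypes, and the groups overlapped. The means were 143.7 ± 34.9 and 170.0 ± 35.0 (SD, n = 3 each). For *Ckb* the log2 fold change was 0.25 (SE 0.228, 95% interval −0.25 to 0.76, limma adjusted *P* = 0.674), with 0.45 between the sample 1 pair and 0.15 between samples 2 and 3, and it was 0.050 without CtrlCre sample 1. Summed markers of fibroblasts, of endothelial cells and of smooth muscle and pericytes were also lowest in CtrlCre sample 1. Fibroblast markers summed to 473, 711 and 689 normalized counts in the CtrlCre samples and 1202, 1161 and 1011 in the Cpt1bcKO samples, with no overlap. Endothelial markers summed to 1195, 2260 and 2485 normalized counts in the CtrlCre samples and 2482, 2502 and 2182 in the Cpt1bcKO samples. Smooth muscle and pericyte markers summed to 582, 1548 and 1909 in the CtrlCre samples and 1509, 1414 and 1042 in the Cpt1bcKO samples. Within Cpt1bcKO, sample 3 had the highest *Ckb* value and the lowest sum of each of these marker lists. The part of these cells in the *Ckb* values was not tested. The annotation also lists processed pseudogenes of *Ckb*, and reads that align to several places were left out by the authors.

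*Slc6a8* (ENSMUSG00000019558, chromosome X from 73673150 to 73682502, plus strand) encodes the creatine transporter. It had 444, 451 and 440 normalized counts in the CtrlCre samples, a narrow range, and 559, 577 and 448 in the Cpt1bcKO samples. Cpt1bcKO samples 1 and 2 lay above all CtrlCre samples, and Cpt1bcKO sample 3 lay below CtrlCre sample 2. The means were 445.0 ± 5.57 and 528 ± 69.9 (SD, n = 3 each). Between the genotypes *Slc6a8* had a log2 fold change of 0.24 (SE 0.149, 95% interval −0.092 to 0.57, limma adjusted *P* = 0.521). Under limma it was 0.35 (unadjusted *P* = 0.0418, adjusted *P* = 0.392) without Cpt1bcKO sample 3. This was the 1 fit with a sample left out below an unadjusted 0.05, and 596 of 11051 genes were higher in it at that threshold. With scaling that left out mitochondrial-encoded and rRNA genes, the log2 fold change was also 0.35 (limma unadjusted *P* = 0.0483, adjusted *P* = 0.324). Cpt1bcKO sample 3 was the sample in which mitochondrial-encoded and rRNA genes made up 89.5% of the sum. Without these genes, the sums of Cpt1bcKO samples 1, 2 and 3 were 3146414, 3219308 and 3315777. The part of these genes in the *Slc6a8* values was not tested.

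**Figure D1:**
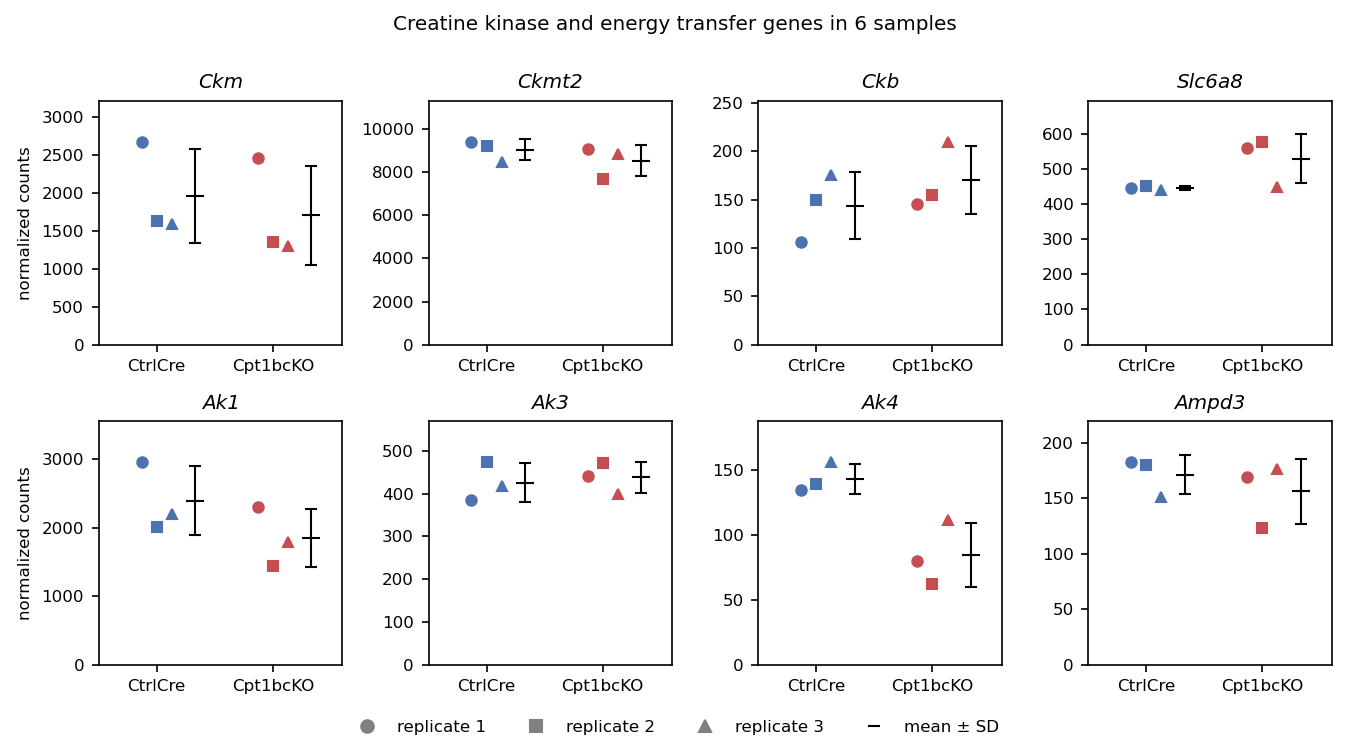
Normalized counts of the 8 genes in each of the 6 samples, on a linear axis from 0 for each gene. Circles, squares and triangles are replicates 1, 2 and 3, and bars are the mean ± SD of 3 samples. *Ak4* alone has all Cpt1bcKO samples (62 to 111) below all CtrlCre samples (134 to 156), and the circles of *Ckm*, *Ckmt2* and *Ak1* are the highest points of both groups.

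*Ak1* (ENSMUSG00000026817, chromosome 2 from 32621758 to 32635058, plus strand) encodes the cytosolic adenylate kinase of muscle. It had 2960, 2009 and 2202 normalized counts in the CtrlCre samples and 2297, 1449 and 1796 in the Cpt1bcKO samples. Sample 1 was again the highest of both groups, at 1.41 and 1.42 times the mean of the other samples, and Cpt1bcKO sample 1 lay above CtrlCre samples 2 and 3. The means were 2390 ± 503 and 1847 ± 426 (SD, n = 3 each). For *Ak1* the log2 fold change was −0.38 (SE 0.201, 95% interval −0.82 to 0.068, limma adjusted *P* = 0.438), with −0.37 between the sample 1 pair and −0.38 between samples 2 and 3. It was −0.21 without CtrlCre sample 1 (unadjusted *P* = 0.309 in limma) and −0.22 without Cpt1bcKO sample 2 (unadjusted *P* = 0.341 in limma). Without Cpt1bcKO sample 1 it was −0.55 (limma unadjusted *P* = 0.0133, adjusted *P* = 0.137). In that last fit 3 of 8 members were lower at an unadjusted 0.05 (*Ckm*, *Ak1* and *Ak4*), as were 10.9% of the genes tested, against 7.22% with all samples. With sex as a covariate, these 3 members and 11.3% of all genes were lower at an unadjusted 0.05, with limma adjusted *P* values of 0.227 for *Ckm*, 0.0817 for *Ak1* and 0.0612 for *Ak4*. A sample 1 that was the highest of both groups and at least 1.4 times the mean of samples 2 and 3 was seen in 581 of the 11364 genes (5.11%). The limit of 1.4 lies just below the *Ak1* ratios of 1.41 and 1.42, and this share is a description only.

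*Ak4* (ENSMUSG00000028527, chromosome 4 from 101419277 to 101466995, plus strand) encodes an adenylate kinase of the mitochondrial matrix. It had 134, 139 and 156 normalized counts in the CtrlCre samples and 80, 62 and 111 in the Cpt1bcKO samples. Every Cpt1bcKO sample was below every CtrlCre sample, and the gap between 111 and 134 was smaller than the range within Cpt1bcKO. The means were 143.0 ± 11.5 and 84.33 ± 24.8 (SD, n = 3 each). For *Ak4* the log2 fold change was −0.79 (SE 0.229, 95% interval −1.30 to −0.28), with unadjusted *P* = 0.00586 and adjusted *P* = 0.149 from limma. It was −0.74 between the sample 1 pair and −0.82 between samples 2 and 3. Leaving out each sample in turn gave −1.01 to −0.59, and limma adjusted *P* values of 0.0655 to 0.482. The value of a single read could be worked out in 4 samples. In these, the lowest value of any member rested on about 86 to 164 reads. Cpt1bcKO sample 2, with the lowest *Ak4* value (62), was not among the 4.

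*Ak3* (ENSMUSG00000024782, chromosome 19 from 29020833 to 29047961, minus strand) encodes the matrix adenylate kinase that uses GTP. It had 385, 474 and 417 normalized counts in the CtrlCre samples and 441, 472 and 400 in the Cpt1bcKO samples. The values were interleaved, with both the lowest and the highest in CtrlCre. The means were 425.3 ± 45.1 and 437.7 ± 36.1 (SD, n = 3 each). For *Ak3* this gave a log2 fold change of 0.043 (SE 0.149, 95% interval −0.29 to 0.37, limma adjusted *P* = 0.930), and it was −0.026 without CtrlCre sample 1 and −0.013 without Cpt1bcKO sample 2. *Cdc37l1*, on the opposite strand, shares 13.8% of the *Ak3* exon bases and had 657 to 730 normalized counts. Since reads on several genes were left out by the authors, reads on the shared bases are missing from *Ak3* if strand was not used.

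*Ampd3* (ENSMUSG00000005686, chromosome 7 from 110768206 to 110812405, plus strand) encodes an AMP deaminase, which turns AMP into IMP. It had 183, 180 and 151 normalized counts in the CtrlCre samples and 169, 123 and 177 in the Cpt1bcKO samples. The groups overlapped, and Cpt1bcKO sample 2 was the lowest. The means were 171.3 ± 17.7 and 156.3 ± 29.1 (SD, n = 3 each). For *Ampd3* this gave a log2 fold change of −0.14 (SE 0.193, 95% interval −0.57 to 0.28, limma adjusted *P* = 0.790), and it was 0.019 without Cpt1bcKO sample 2.

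**Figure D2:**
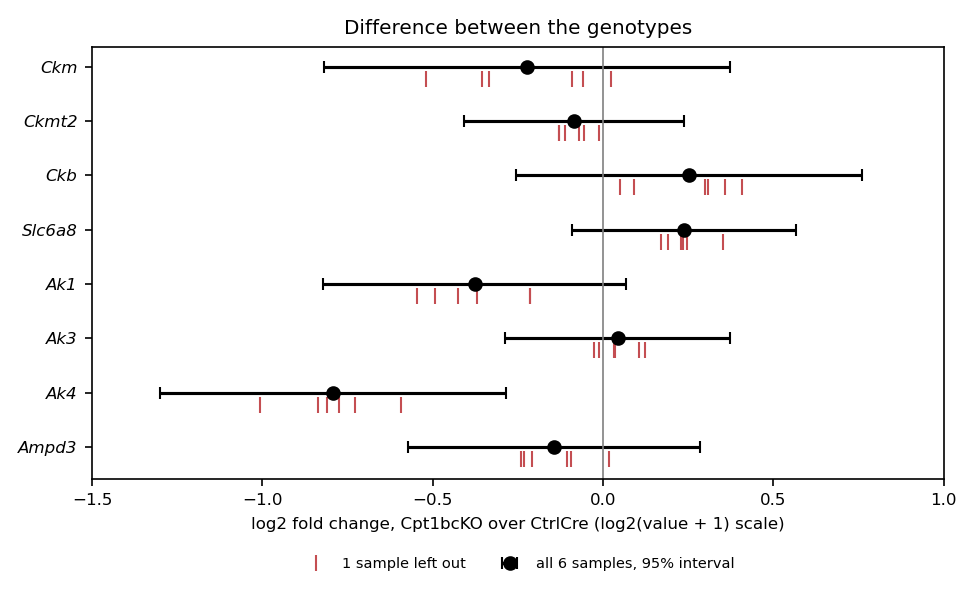
Log2 fold change of each gene between Cpt1bcKO and CtrlCre on the log2(value + 1) scale, with black bars for the 95% interval of the fit on 6 samples and red ticks for the fits with 1 sample left out. The interval of *Ak4* (−1.30 to −0.28) lies below 0, and those of the other 7 genes include 0.

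Levels were compared between genes per kb of exon, the union of the annotated exons that lie within the limits of the gene in the deposited table. For *Ckm* the annotation starts further upstream, at 19404776, and the exons there were not counted in its length. *Ckmt2* was the highest, with 6088 ± 328 normalized counts per kb in CtrlCre and 5748 ± 494 in Cpt1bcKO CMs (SD, n = 3 each). *Ak1* (921.8 ± 194 and 712.4 ± 164) and *Ckm* (714.6 ± 225 and 620.7 ± 238) came next, and their samples overlapped. *Ak3* (136.3 ± 14.4 and 140.3 ± 11.6) lay above *Slc6a8* (85.41 ± 1.07 and 101.3 ± 13.4), which lay above *Ckb* (49.63 ± 12.1 and 58.72 ± 12.1), with no overlap between these neighbours. The lowest levels were those of *Ak4* (30.78 ± 2.48 and 18.15 ± 5.33) and *Ampd3* (30.45 ± 3.14 and 27.78 ± 5.18), which overlapped. The union of exons is longer than the coding sequence by an amount that differs between genes, and the order of the low genes depends on the length used. Per kb of coding sequence, *Ak4* was at 213.8 ± 17.2 in CtrlCre CMs, above *Ckb* at 125.7 ± 30.6 and *Ampd3* at 73.69 ± 7.60. In Cpt1bcKO CMs *Ak4* was at 126.1 ± 37.0, *Ckb* at 148.7 ± 30.6 and *Ampd3* at 67.24 ± 12.5, and the samples of *Ak4* and *Ckb* overlapped. *Ckmt2* stayed the highest on that scale, at 7197 ± 388 in CtrlCre and 6795 ± 584 in Cpt1bcKO CMs. Next on that scale were *Ak1* (3752 ± 789 and 2900 ± 669) and *Ckm* (1714 ± 540 and 1489 ± 570). Their samples did not overlap within either group there, unlike per kb of exon.

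**Figure D3:**
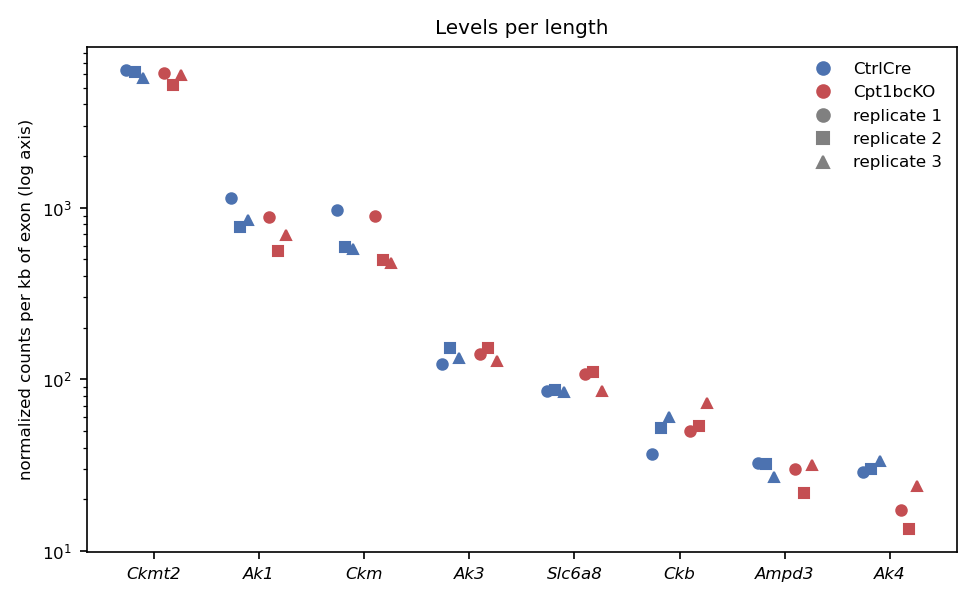
Normalized counts per kb of exon for each gene in each sample, on a log axis, with CtrlCre in blue, Cpt1bcKO in red and replicates 1, 2 and 3 as circles, squares and triangles. *Ckmt2* (5184 to 6343) lies above every other gene in all 6 samples, and *Ampd3* and *Ak4* are the lowest.

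Of the summed level of the 3 creatine kinases per kb of exon, *Ckmt2* made up 88.9% ± 2.34 in CtrlCre and 89.5% ± 2.62 in Cpt1bcKO CMs (SD, n = 3 each). *Ckm* made up 10.3% ± 2.54 and 9.53% ± 2.82, and *Ckb* 0.735% ± 0.227 and 0.920% ± 0.203. By coding length, the *Ckm* share was 18.7% and 17.4%, the *Ckmt2* share 79.8% and 80.8%, and the *Ckb* share 1.42% and 1.78%. An antisense gene, *A930016O22Rik*, shares 16.4% of the *Ckm* exon bases and had 1 to 14 normalized counts. Reads on several genes were left out by the authors, which lowers *Ckm* there if strand was not used. Of the 3 adenylate kinases of the set, *Ak1* made up 84.3% ± 3.67 and 81.4% ± 3.83, *Ak3* 12.9% ± 3.18 and 16.5% ± 3.87, and *Ak4* 2.89% ± 0.576 and 2.11% ± 0.632. By coding length, the *Ak4* share was 4.75% and 3.47%. Each of the 6 shares overlapped between the genotypes, and no test was made on them.

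In a ratio of 2 genes of a sample, taken here on the log2(value + 1) scale, the scaling of that sample cancels except for the added 1. The log2 ratio of *Ckb* to *Ckm*, brain type over muscle type, was −4.64, −3.43 and −3.17 in the CtrlCre samples and −4.07, −3.12 and −2.62 in the Cpt1bcKO samples. It was higher in Cpt1bcKO for each sample number, with overlapping groups and a mean difference of 0.48 (exact two-sided permutation *P* = 0.5). This difference was 0.028 without CtrlCre sample 1, 0.15 without Cpt1bcKO sample 3 and 0.88 without Cpt1bcKO sample 1. The log2 ratio of *Ak4* to *Ak1* was −4.46, −3.84 and −3.81 in the CtrlCre samples and −4.83, −4.53 and −4.00 in the Cpt1bcKO samples, a mean difference of −0.42 (exact *P* = 0.2), or −0.64 to −0.23 with 1 sample left out. The log2 ratios of *Ckmt2* to *Ckm*, *Slc6a8* to *Ckm*, *Ak3* to *Ak1* and *Ampd3* to *Ak1* differed by 0.14, 0.46, 0.42 and 0.23 (exact *P* = 0.5, 0.3, 0.4 and 0.3). The *Ckmt2* to *Ckm* difference changed sign without CtrlCre sample 1 (−0.077) and without Cpt1bcKO sample 3 (−0.052). With 1 sample left out, the difference for *Slc6a8* to *Ckm* was 0.21 to 0.71, for *Ak3* to *Ak1* 0.19 to 0.62 and for *Ampd3* to *Ak1* 0.12 to 0.39, each lowest without CtrlCre sample 1. All 6 ratios overlapped between the groups, and each adjusted *P* over the 6 exact tests was 0.5. Samples of 3 against 3 cannot give an exact *P* below 0.1, so these tests could not reach 0.05.

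The other genes of energy transfer and adenine nucleotide turnover were read from 8 lists of 53 genes, of which 49 were listed and 41 tested. On the log2 scale 20 were higher and 21 lower, with a median of −0.005. None of the 41 reached a limma adjusted *P* value below 0.05. With sex as a covariate 2 of the 41 did, as did 574 of the 11364 genes tested. At an unadjusted 0.05, 1 was higher (2.44%, against 6.66% of all genes) and 3 were lower (7.32%, against 7.22% of all genes). *Gatm* and *Gamt*, the enzymes of creatine synthesis, and the other mitochondrial creatine kinase *Ckmt1* were all below the filter, with 0 to 9 normalized counts per sample.

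Among the other adenylate kinases, *Ak6* had a log2 fold change of 0.001, and *Ak7* was below the filter. In the purine nucleotide cycle, *Adssl1*, the muscle adenylosuccinate synthase that follows AMP deaminase, had 812, 746 and 740 normalized counts in the CtrlCre samples and 1267, 987 and 937 in the Cpt1bcKO samples. All Cpt1bcKO samples were above all CtrlCre samples (log2 fold change 0.46, unadjusted *P* = 0.0121, limma adjusted *P* = 0.201). Its paralog *Adss* had a log2 fold change of 0.33 (unadjusted *P* = 0.176 in limma), and *Ampd2* was below the filter.

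*Slc25a23*, a calcium-regulated ATP-Mg and phosphate carrier of the inner mitochondrial membrane, had 63, 72 and 65 normalized counts in the CtrlCre samples and 54, 45 and 36 in the Cpt1bcKO samples (log2 fold change −0.57, unadjusted *P* = 0.0325, limma adjusted *P* = 0.298). The ADP/ATP carrier *Slc25a5* had a log2 fold change of 0.31 (unadjusted *P* = 0.0896 in limma). *Stk11* encodes LKB1, the main kinase upstream of AMPK. It had 234, 202 and 205 normalized counts in the CtrlCre samples and 158, 156 and 180 in the Cpt1bcKO samples (log2 fold change −0.37, unadjusted *P* = 0.0417, limma adjusted *P* = 0.337). *Camkk2*, the other upstream kinase, had −0.66 (unadjusted *P* = 0.0871 in limma), and 7 of the 9 genes of the AMPK list had a negative log2 fold change. *Atp2a2*, the calcium pump SERCA2 of the sarcoplasmic reticulum and a large user of the ATP that creatine kinase restores, had 60919, 71748 and 70577 normalized counts in the CtrlCre samples and 38677, 44293 and 51436 in the Cpt1bcKO samples. The groups did not overlap (log2 fold change −0.60, unadjusted *P* = 0.0138, limma adjusted *P* = 0.209). *Myom1*, an M-line protein, had −0.24 (unadjusted *P* = 0.155 in limma).

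Genes of nucleoside diphosphate kinases and of AMP and adenosine breakdown had no member below an unadjusted 0.05. Their lowest *P* values were those of *Nme3* (log2 fold change 0.75, unadjusted *P* = 0.0752 in limma) and *Nme4* (0.44, 0.434), and of *Nt5c3* (−0.45, 0.0517) and *Aprt* (0.79, 0.0625).

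**Figure D4:**
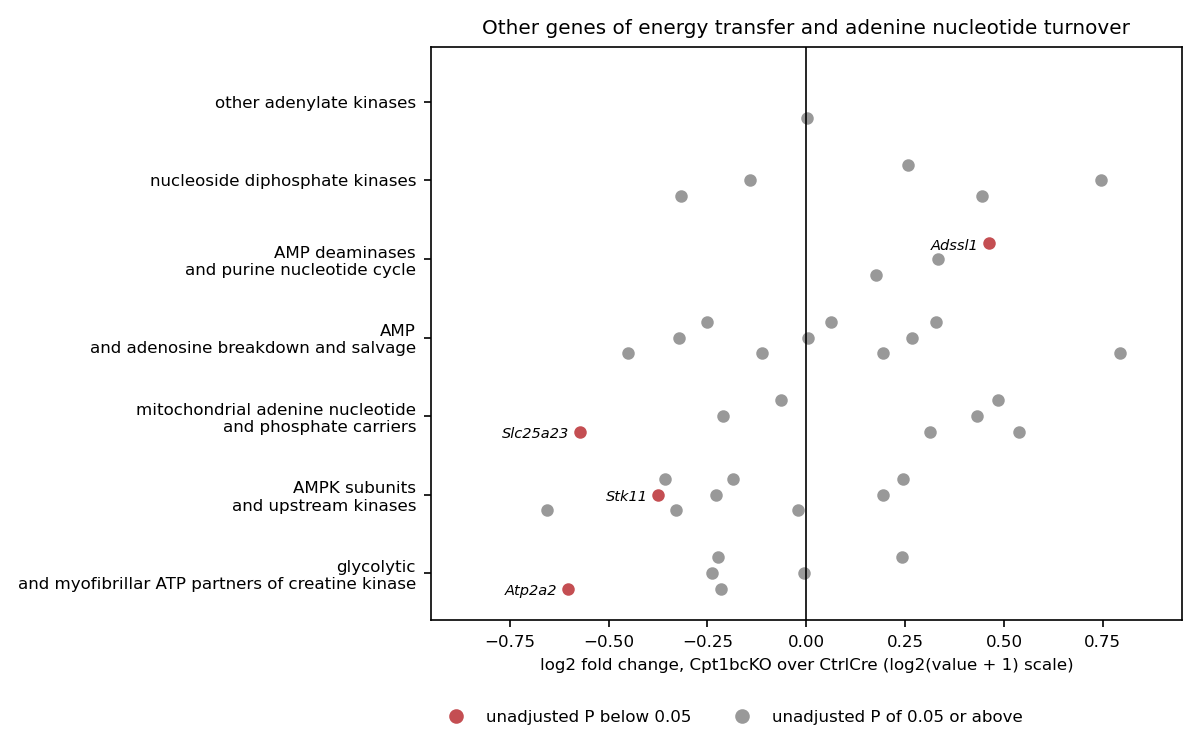
Log2 fold change (log2(value + 1) scale) of the 41 tested genes of energy transfer and adenine nucleotide turnover that are not in the set, 1 point per gene and 1 row per list, with vertical offsets for legibility only. The 4 named red points have an unadjusted *P* value below 0.05 in limma, with *Adssl1* to the right of 0 and *Slc25a23*, *Stk11* and *Atp2a2* to the left.

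The samples carried the markers of ventricular CMs, with 8 of 8 listed and tested and *Myh6* as the highest. The summed ventricular markers were 244345 to 316047 normalized counts in the CtrlCre samples and 184010 to 218405 in the Cpt1bcKO samples. All 8 had a negative log2 fold change, 2 of them below an unadjusted 0.05 in limma, with a median of −0.44. Of the 8 genes of the set, 5 had a negative and 3 a positive log2 fold change. Of 7 fibroblast markers, 6 were tested and all 6 were higher at an unadjusted 0.05 (median 1.11), with sums of 473 to 711 in CtrlCre and 1011 to 1202 in Cpt1bcKO samples and *Dcn* as the highest. All 7 endothelial markers had a positive log2 fold change (median 0.34), 1 of them below an unadjusted 0.05, and *Kdr* was the highest. Smooth muscle and pericyte markers (highest *Rgs5*, median 0.005) and macrophage markers (highest *Mrc1*, sums 131 to 214 and 157 to 186) overlapped between the groups. Lymphocyte (4 to 12, *Ptprc*) and erythroid markers (1 to 20, *Alas2*) were near 0 in sum. Of the atrial markers, *Nppa* was higher in Cpt1bcKO (limma adjusted *P* = 0.00917), *Myl7* was at 2 to 19 and *Sln* had no entry. The paper treats *Nppa* as a dedifferentiation marker and reports it raised by qPCR in *Cpt1b*-deficient CMs. The other atrial marker tested, *Myl4*, overlapped between the groups (log2 fold change 0.35, unadjusted *P* = 0.563 in limma). Fewer cells of a type and less RNA per cell cannot be told apart in such samples, and the part of other cells in the values of the 8 genes was not tested.

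The profile of 7 members over the 6 samples was set beside those of 6796 genes with a mean of at least 50, as the root mean square difference of centred log2 values. Closest to *Ckm* were *Tpt1* (0.034) and *Eif3h* (0.041), with *Tpt1* at 3482, 2098 and 2147 normalized counts in the CtrlCre samples and 3091, 1806 and 1708 in the Cpt1bcKO samples. Closest to *Ak1* were *Serpinb6b* (0.040) and *Npm1* (0.050), and to *Ckb* *Tia1* (0.048) and *Zrsr2* (0.075). Closest to *Slc6a8* were *Rnf115* (0.039) and *Copg2* (0.057), to *Ak3* *Morc3* (0.031) and *Cerk* (0.054), and to *Ampd3* *Tank* (0.041) and *Phactr4* (0.056). *Ak4* had the least close neighbours, *Tmod4* (0.10) and *Zcchc24* (0.103). *Zcchc24* had 180, 179 and 182 normalized counts in the CtrlCre samples and 110, 82 and 126 in the Cpt1bcKO samples, with no overlap.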

How the data were processed

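RNA-seq of CMs from 3 CtrlCre and 3 Cpt1bcKO samples was used, and Cpt1biKO and ChIP–seq samples were not used here. According to the methods and the submitters' processing notes, the authors trimmed reads with Trimmomatic (0.36), aligned them to mm10 (GRCm38.p5) with STAR (2.5.4b) and counted them on genes with featureCounts (1.6.0), without reads on several genes or regions. Use of strand in counting is not given in the sources used here. The deposited values are counts that the authors divided by a DESeq2 (1.14.1) size factor and rounded to whole numbers, treated here as a score that is not a raw count. Columns with the authors' own fold changes and *P* values were not used.

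Values were transformed to log2(value + 1), on which fold changes of low genes are understated. Genes with at least 10 in at least 3 samples were fitted with lmFit and eBayes (trend) in limma 3.58.1 (R 4.3.3), without covariates, and *P* values were adjusted over all genes by Benjamini–Hochberg. The steps were tested on simulated data. Ratios were compared by exact permutation. Exons were taken from GENCODE vM21 and coordinates from the deposited table. Figures were drawn with matplotlib 3.10.9. The members and gene lists were chosen with earlier results of these data known. Named are the members, *Cpt1b*, up to 2 genes per pathway list with the lowest *P* values, the highest gene of each marker list, and 2 genes per member with the closest profile, except for some items that are not reported here and are left out of the list counts. Alternatives were pseudocounts of 0.5 and 5, other filters, other scaling, 1 prior variance, a replicate block, sex as covariate, coding length, and leaving out each sample.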

Additional observations from a re-analysis of the deposited data

How the results depend on the processing

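Of 120 member fold changes under 15 alternatives, 114 kept their direction and their side of the adjusted threshold, 5 changed sign and 1 passed it, and the cause was not tested. The changes of sign were *Ckmt2* (0.027, scaled without mitochondrial-encoded and rRNA genes), *Ckm* (0.022 without CtrlCre replicate 1, range with 1 sample left out −0.52 to 0.022), *Ak3* (−0.026 without CtrlCre replicate 1, −0.013 without Cpt1bcKO replicate 2, range with 1 sample left out −0.026 to 0.12) and *Ampd3* (0.019 without Cpt1bcKO replicate 2, range with 1 sample left out −0.24 to 0.019). That scaling gave 1221 genes higher and 505 lower at an unadjusted 0.05, against 757 and 821, and 1 member higher (*Slc6a8*). With 1 prior variance, 41 genes passed the adjusted threshold, against 178.

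Deviations from the group means correlated between same-numbered samples at 0.376, 0.255 and 0.0684, so the numbers were not taken as pairs. The paper states that littermates served as controls, but the labels do not say which samples shared a litter. Samples 1 and 2 of each group correlated best with their own number, and samples 3 did not. The replicate block gave 603 genes past the adjusted threshold and 1289 lower at an unadjusted 0.05. It gave 1 member past the adjusted threshold (*Ak4*, −0.79, limma adjusted *P* = 0.0378), 3 members lower at an unadjusted 0.05, and 9 pathway genes at an unadjusted and 2 at an adjusted 0.05. Pairwise exchange of the labels gave exact *P* values of 0.25 to 0.5 for the ratios, with 0.25 the smallest possible. Sex as a covariate gave 574 and 1280 genes, 3 members lower, and 7 and 2 pathway genes.

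Leaving out 1 sample gave 40 to 305 genes past the adjusted threshold, 434 to 995 higher and 538 to 1213 lower at an unadjusted 0.05. It gave 1 to 3 members lower and 0 to 1 higher, and 2 to 5 pathway genes. By coding length the shares were 18.7% and 17.4% for *Ckm*, 79.8% and 80.8% for *Ckmt2*, 1.42% and 1.78% for *Ckb* and 4.75% and 3.47% for *Ak4*. Depth could be worked out in 4 samples only, and 3 samples a group limit what can be detected: the intervals of 7 members include 0 and changes in either direction.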
